A study of Mus musculus with 4 samples.

Results

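The epidermal growth factor (EGF) receptor family and its ligands were followed in liver cells of mice, sequenced 1 by 1 for their RNA and labelled as biliary epithelium (BECs, which line the bile ducts). The 10 genes were set by name: the receptors Egfr, Erbb2, Erbb3 and Erbb4, and the ligands Areg, Ereg, Hbegf, Tgfa, Btc and Nrg1. They are 10 of 50766 genes in the deposited table, and all 10 had counts. The names were chosen with results of these same data in view, so the values of the family between treatments are given as a description, without p-values. Where members are counted among genes called by a fit of all genes, the count stands beside the same share over all genes and nothing is read from it. All mice carried the Sox9EGFP genotype, in which expression of a fluorescent protein follows Sox9, a transcription factor of biliary cells. The study compared 2 mice taken 7 d after sham surgery with 2 mice taken 7 d after bile duct ligation (BDL), surgical closure of the bile duct. Each mouse gave 1 library, so n = 2 per group. Age and sex were not among the labels used here.

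EGF family ligands are made as membrane-anchored precursors and are released by proteases of the ADAM family. Egfr binds amphiregulin (Areg), epiregulin (Ereg), heparin-binding EGF-like growth factor (Hbegf), transforming growth factor alpha (Tgfa) and betacellulin (Btc). Erbb3 and Erbb4 bind neuregulins such as Nrg1, and Erbb4 also binds Hbegf, Btc and Ereg. Erbb2 has no known ligand and acts as a partner of the other receptors, and Erbb3 has little kinase activity of its own. Receptor pairs signal through the RAS-ERK and PI3K-AKT pathways. In liver, Egfr is known for its abundance on hepatocytes and for its part in regeneration.

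Promoter sequence shows where the members with the clearest opposite levels, and Areg, a ligand concentrated in 1 biliary cluster, start on the genome. RefSeq promoter windows (250 bases before to 50 bases after the start site, GRCm38.p6, an earlier build than that of the counts) were matched by symbol for 6 of the 10 members. These were Egfr, Erbb2, Erbb4, Areg, Tgfa and Btc. The 300 bases of Egfr lie at chr11:16751953-16752252 on the plus strand, those of Erbb4 at chr1:69108010-69108309 on the minus strand and those of Areg at chr5:91139349-91139648 on the plus strand. Capitals mark matches to any of 4 motifs.
Egfr promoter: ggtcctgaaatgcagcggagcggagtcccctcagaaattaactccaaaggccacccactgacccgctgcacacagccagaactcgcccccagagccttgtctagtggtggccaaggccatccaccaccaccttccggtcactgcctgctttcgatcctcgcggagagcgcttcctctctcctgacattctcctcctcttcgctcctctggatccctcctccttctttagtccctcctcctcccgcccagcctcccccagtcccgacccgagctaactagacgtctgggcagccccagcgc
Erbb4 promoter: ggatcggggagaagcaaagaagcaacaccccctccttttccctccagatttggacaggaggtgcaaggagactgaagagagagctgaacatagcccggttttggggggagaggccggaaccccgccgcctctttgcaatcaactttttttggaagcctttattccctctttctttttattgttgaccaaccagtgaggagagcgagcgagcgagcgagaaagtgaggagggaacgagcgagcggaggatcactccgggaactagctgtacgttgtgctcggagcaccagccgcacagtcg
Areg promoter: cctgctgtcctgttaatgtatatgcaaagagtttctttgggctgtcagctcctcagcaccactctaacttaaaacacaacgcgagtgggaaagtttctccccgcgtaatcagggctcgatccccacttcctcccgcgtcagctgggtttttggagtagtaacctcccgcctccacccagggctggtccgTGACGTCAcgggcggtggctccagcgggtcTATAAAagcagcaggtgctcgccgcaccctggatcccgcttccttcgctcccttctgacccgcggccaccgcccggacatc

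The 4 motifs were searched on both strands: an AP-1 site (TGANTCA), a cyclic AMP response element or CRE (TGACGTCA), a TEAD site (GGAATG) and a TATA box (TATAAA). In Areg, the CRE began at position -61 and the TATA box at -31 from the start site. In Erbb2, the TEAD letters began at position -88. No match to these letters was found in the windows of Egfr, Erbb4, Tgfa and Btc. Among 32544 mouse promoter windows of the same length, 7.79% held the AP-1 letters, 1.80% the CRE, 14.6% the TEAD letters and 13.6% the TATA letters. A match is a match of letters only.

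The 4 libraries held 10024577 to 33809650 unique molecular identifiers (UMIs, each standing for 1 captured transcript) in 2089 to 4065 cells. The median cell held 3260 and 2610 UMIs in sham replicates 1 and 2 and 7058 and 7793 UMIs in BDL replicates 1 and 2. After filters, 12183 of 12211 cells were used, and no cell barcode was shared between libraries. Replicates differed beyond counting noise, with a chi-square per degree of freedom of 25.6 for the sham pair and 37.8 for the BDL pair. The group name inside the deposited cell table contradicts the sample label for 2 libraries: it reads BDL for sham replicate 2 and sham for BDL replicate 2. Samples were grouped by their labels. In the biliary clusters described below, sham replicate 2 lay with sham replicate 1 and BDL replicate 2 with BDL replicate 1. The cluster led by Kcnip4 held 931 and 722 sham cells and 5 and 3 BDL cells. That led by Ccl20 held 2 and 0 sham cells and 407 and 1073 BDL cells. BDL replicate 2 also stood apart in Xist, an RNA of the inactive X chromosome, at 1918 CPM (counts scaled to a fixed library total) against 7.72 to 10.3 in the other 3 libraries. Log2 fold changes of the members are therefore also given with only sham replicate 1 and BDL replicate 1, the pair whose names match.

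Cells were clustered and named from marker lists. The BEC-like class, to which the labelled cell type corresponds, held 2608, 2581, 1963 and 3800 cells in sham replicates 1 and 2 and BDL replicates 1 and 2. All 11 biliary markers, Krt19, Epcam and Sox9 among them, had counts in each of these sums. Their summed level was 12091 and 11194 CPM in sham and 10278 and 10857 CPM in BDL. Smaller classes were mesenchymal-like (188, 422, 71 and 132 cells), endothelial-like (40, 122, 19 and 34), hepatocyte-like (2, 32, 8 and 35) and macrophage-like (13, 17, 18 and 50). The macrophage-like cluster also met 9 of the 11 biliary markers and is therefore mixed. A further cluster of 28 cells led by Rgs13 and St18 stayed unnamed. Counting of intronic reads is not given in the sources used here, and levels are not per length, so levels of different genes are not set against each other.

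In BEC-like cells, Egfr was higher and Erbb4 lower after BDL, with no overlap between the groups. Among ligands, Hbegf and Nrg1 were lower, and Tgfa was higher. Areg and Btc were higher without overlap, and the groups overlapped for the receptors Erbb2 and Erbb3. The filter on low counts was passed by 9 of the 10 members, all but Ereg. With edgeR's quasi-likelihood test over 16030 genes, 5 of these 9 were called at an adjusted p under 0.05 (Egfr and Tgfa higher, Erbb4, Hbegf and Nrg1 lower), beside 27.2% of all genes tested. Calls in the higher direction made up 14.3% and calls in the lower direction 13% of all genes. Nothing is read from the count of members, because the genes were chosen with this contrast known. The median log2 fold change was 0.38 over the 9 members and -0.02 over all genes.

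Egfr measured 191 and 158 CPM in sham and 582 and 858 CPM in BDL. Both BDL libraries lay above both sham libraries, and the BDL pair was the more spread. The means were 175 ± 23.3 (SD, n = 2) and 720 ± 195 CPM, and the fitted log2 fold change was 2.07 ± 0.20 (SE), a 4.20-fold higher level. Without BDL replicate 2 the value was 1.77, and with the pair of matching names alone it was 1.60. These levels rest on 1323 to 27360 UMIs per library.

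Erbb4, the receptor for neuregulins and Hbegf, showed the opposite order. Its level was 2252 and 2250 CPM in sham and 802 and 749 CPM in BDL. The replicates of each group lay close together, at 2251 ± 1.19 and 775 ± 37.9 CPM (SD, n = 2). The fitted log2 fold change was -1.52 ± 0.13 (SE), a 2.86-fold lower level in BDL. It was -1.46 without BDL replicate 2 and -1.49 in the pair of matching names.

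Erbb2, the partner receptor without a ligand, measured 23.7 and 17.7 CPM in sham and 18.6 and 35.0 CPM in BDL. The groups overlapped, and BDL replicate 2 alone lay above the others. The log2 fold change of 0.42 ± 0.29 (SE) became -0.12 without that library and -0.34 in the pair of matching names. Erbb3, the kinase-poor receptor for neuregulins, measured 47.5 and 38.1 CPM in sham and 45.6 and 63.7 CPM in BDL. Its groups overlapped too, with a log2 fold change of 0.38 ± 0.18 (SE), and it was -0.061 in the pair of matching names, where the median of all genes was -0.11.

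Hbegf, a ligand shared by Egfr and Erbb4, was read at 1668 and 1945 CPM in sham and at 983 and 1003 CPM in BDL. Both BDL libraries lay below both sham libraries. The log2 fold change was -0.85 ± 0.16 (SE), and -0.76 in the pair of matching names. Without sham replicate 2 it was -0.63.

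Nrg1, the neuregulin ligand of Erbb3 and Erbb4, was at 141 and 147 CPM in sham and at 82.4 and 71.0 CPM in BDL. The sham pair lay above the BDL pair, with a log2 fold change of -0.89 ± 0.13 (SE), and -0.77 in the pair of matching names. Nrg1 and its receptor Erbb4 were thus both lower in BDL libraries, while Erbb3 was not.

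Tgfa, an Egfr ligand, was at 80.6 and 79.4 CPM in sham and at 101 and 128 CPM in BDL. The BDL libraries were both higher, by a log2 fold change of 0.54 ± 0.14 (SE), and by 0.33 in the pair of matching names. The value was 0.49 without sham replicate 1, 0.63 without sham replicate 2 and 0.37 without BDL replicate 2. In the cells of each library at or below its median share of hepatocyte-marker UMIs, it was 0.25.

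Btc, a ligand of Egfr and Erbb4, measured 42.3 and 48.1 CPM in sham and 48.9 and 63.1 CPM in BDL. The groups did not overlap, by a margin of under 1 CPM, and the log2 fold change was 0.33 ± 0.17 (SE), and 0.21 in the pair of matching names. Areg, an Egfr ligand, was low in every library, at 2.98 and 5.5 CPM in sham and 5.75 and 6.99 CPM in BDL (29, 46, 84 and 223 UMIs). Its log2 fold change was 0.62 ± 0.35 (SE), 0.18 without sham replicate 1, 1.22 without sham replicate 2 and 0.95 in the pair of matching names. Ereg, another Egfr ligand, gave 3, 2, 8 and 30 UMIs in these cells, or 0.309, 0.239, 0.548 and 0.940 CPM, and did not pass the filter.

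Among the 9 members fitted, the groups did not overlap in 4 with BDL higher (Egfr, Areg, Tgfa and Btc) and in 3 with BDL lower (Erbb4, Hbegf and Nrg1), and 2 overlapped. Over all 16030 genes the groups did not overlap in 66.9%, with BDL higher in 31.4% and lower in 35.5%. Across 14 alternatives, log2 fold changes ran from 1.60 to 2.35 for Egfr, from -1.68 to -1.39 for Erbb4 and from -1.04 to -0.76 for Nrg1.

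**Figure D1:**
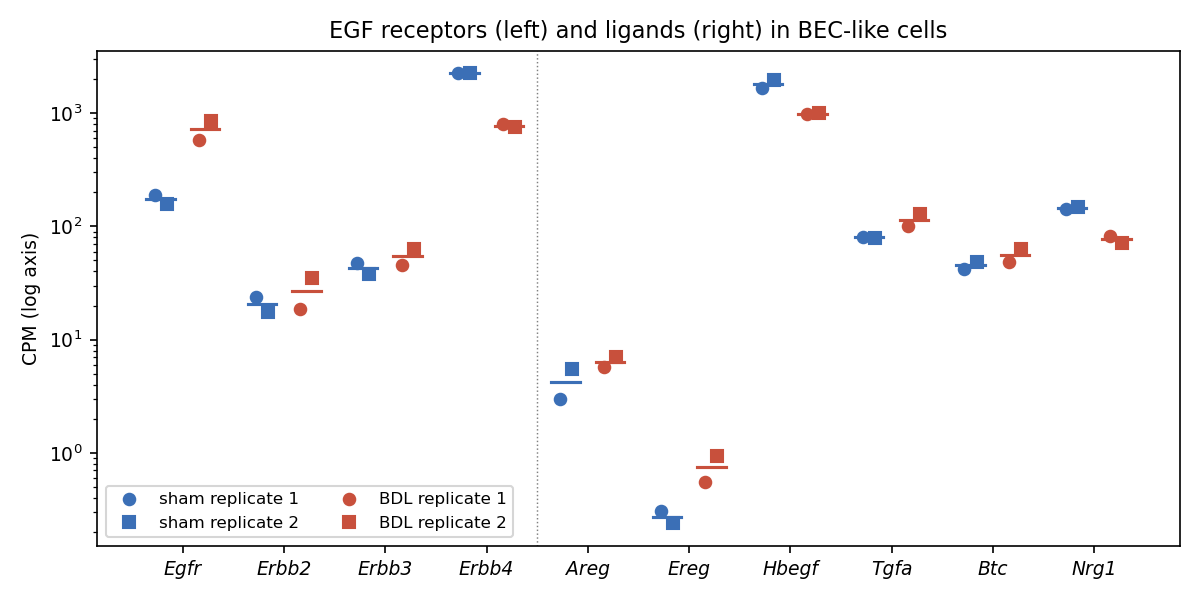
Level of each EGF family member in BEC-like cells of each library, in CPM on a log axis, with sham in blue, BDL in red, circles for replicate 1, squares for replicate 2 and a bar at the group mean. Egfr is at 158 to 191 CPM in sham and 582 to 858 CPM in BDL, and Erbb4 at 2250 to 2252 CPM against 749 to 802 CPM, while heights of different genes are not comparable because levels are not per length.

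RNA of other cell types moved with the groups. In BEC-like sums the 10 hepatocyte markers reached 1253 and 1284 CPM in sham and 145 and 114 CPM in BDL. Of these markers 7 were lower and 2 higher in BDL without overlap, and Cyp2e1 was at 0 in both sham libraries. The 10 mesenchymal markers summed to 106 and 102 CPM in sham and 16.9 and 31.5 CPM in BDL, with 5 lower and 0 higher without overlap. The 5 mesothelial markers summed to 334 and 278 CPM and to 94.0 and 102 CPM, but 2 of them were lower and 2 higher without overlap. The 10 endothelial markers summed to 50.2 and 50.3 CPM in sham and 25.7 and 14.5 CPM in BDL, with 6 lower and 0 higher. Endothelial-like cells hold Hbegf and Nrg1, and the part of their RNA in the levels of these ligands in BEC-like cells was not tested. In sham replicate 2, the only sham library with more than 2 hepatocyte-like cells, the hepatocyte list in BEC-like cells was at 8.45% of its level in hepatocyte-like cells. Egfr in the same library was at 11.3% of its hepatocyte-like level, while Erbb4 was at 567% and Tgfa at 250%. Among cells at or below the median hepatocyte share the log2 fold change was 1.89 for Egfr, -1.64 for Erbb4, -1.06 for Hbegf and -0.84 for Nrg1. The part of this RNA in the level of Egfr in sham cells was not tested.

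Shares of BEC-like cells with at least 1 UMI were compared with each cell thinned to 1000 UMIs. For Egfr the thinned shares were 15.3% and 11.5% in sham and 33.9% and 47.1% in BDL. In endothelial-like cells, a type that should hold little Egfr, 0 of 24 and 0 of 58 thinned sham cells and 1 of 18 and 1 of 34 thinned BDL cells had a UMI. By a floor of 3 counts, 0 of 58 allows a share of up to 5.17%. For Erbb4 the shares of BEC-like cells were 81.3% and 80.8% in sham and 46.5% and 44.6% in BDL, against 4.17%, 13.8%, 0% and 2.94% of endothelial-like cells. So at matched depth an Egfr UMI was seen in a larger share of BDL cells, and an Erbb4 UMI in a smaller share. Such a share depends on the level per cell as well as on how many cells express the gene, and these were not told apart.

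Hbegf was seen in 68.8% and 72.5% of thinned sham cells and in 55.3% and 55.9% of thinned BDL cells. Nrg1 was seen in 9.09% and 8.52% of sham cells and in 6.01% and 5.76% of BDL cells. Thinned shares of Tgfa were 7.70% and 6.42% in sham and 9.58% and 11.1% in BDL. Those of Btc were 4.07% and 4.28% in sham and 3.77% and 5.21% in BDL, with overlap, while at 2000 UMIs per cell they were 7.06% and 7.36% and 9.11% and 11.5%, without overlap. Erbb3 likewise overlapped at 1000 UMIs and not at 2000 UMIs, and Areg and Ereg were in 0.0395% to 0.509% of cells. Thinning left out 77 and 104 sham cells and 0 BDL cells. Without thinning, where BDL cells held more UMIs, the order of both ligands turned: Hbegf was in 87.2%, 89.1%, 94.0% and 95.3% of cells and Nrg1 in 19.1%, 16.6%, 24.8% and 21.6%. The unthinned shares of Egfr were 35.0%, 26.8%, 76.5% and 86.6%, and those of Erbb4 were 94.9%, 93.9%, 85.9% and 84.9%. Median UMIs per cell were 3302, 2760, 7132 and 7876 in BEC-like cells and 1208.5, 955, 1734 and 2987 in endothelial-like cells. Hbegf and Nrg1 are themselves present in endothelial-like cells, so no class was taken as their background.

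Within the biliary class, cells fell into 11 clusters that split almost wholly by treatment. The sham libraries filled clusters led by Kcnip4, A230001M10Rik, Mboat1 and Tll2, and the BDL libraries those led by Ccl20, Ankrd1, Gabrp, Vtcn1, Dscaml1, H1f5 and Plscr1l1. Clusters were built on all variable genes of these cells, so differences among them are descriptions. The Vtcn1 cluster had the mesothelial marker Msln among its 10 leading genes and no biliary marker there, as no BEC-like cluster had, so the members are also given without it. The log2 fold change without that cluster was 1.93 for Egfr, -1.68 for Erbb4, -1.0 for Hbegf, -1.04 for Nrg1 and 0.53 for Tgfa. Without it Erbb2, Erbb3 and Btc stood at 0.38, 0.31 and 0.21, and Ereg at 0.310 and 0.241 CPM in sham and 0.371 and 0.411 CPM in BDL. Btc was then at 41.6 and 47.9 CPM in sham and 45.7 and 57.8 CPM in BDL, with overlap. Shares of cells and marker sums were not computed without it.

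Egfr varied widely among BDL clusters. It ran from 188 and 225 CPM in the Dscaml1 cluster to 995 and 1270 CPM in the Vtcn1 cluster (BDL replicates 1 and 2), with 775 and 969 CPM in the Ccl20 cluster. Sham clusters ran from 92.6 to 269 CPM, highest in the Mboat1 cluster at 269 and 240 CPM. The Mboat1 cluster was the sham cluster that met no hepatocyte marker, while the other sham clusters met Alb, Ttr and Ahsg. The Dscaml1 cluster of BDL cells therefore overlapped the range of sham clusters in Egfr.

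Erbb4 kept the groups apart in every cluster with at least 30 cells in both libraries of its group. Sham clusters lay between 2036 and 2752 CPM and BDL clusters between 535 and 1433 CPM. The lowest BDL values were those of the Ccl20 cluster (592 and 535 CPM) and the highest those of the Vtcn1 cluster (1433 and 1222 CPM). Thus the Vtcn1 cluster had the highest Egfr and also the highest Erbb4 among BDL clusters, and the Ccl20 cluster combined high Egfr with low Erbb4.

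**Figure D2:**
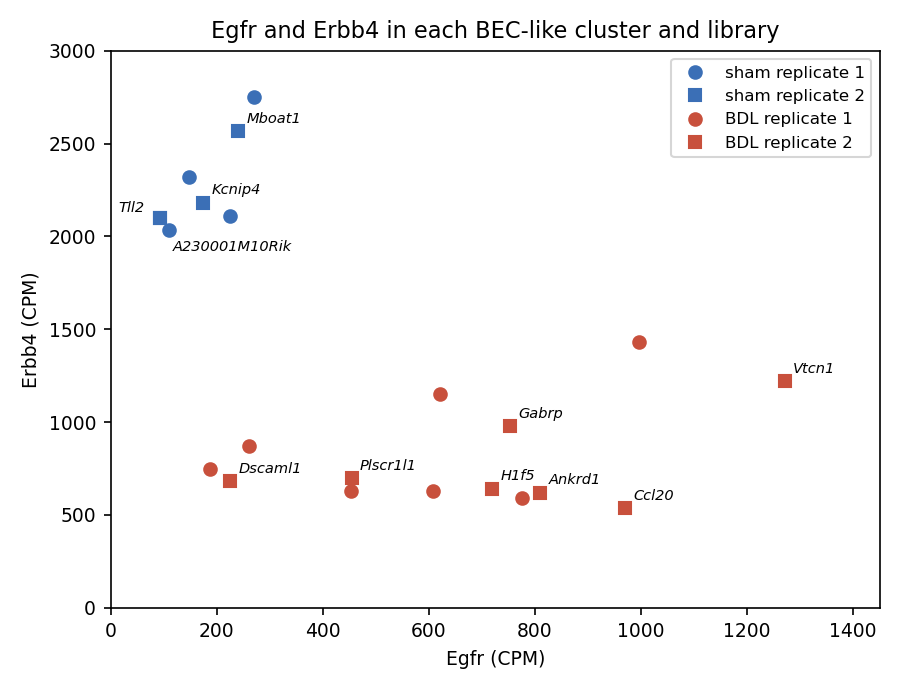
Egfr against Erbb4 (both in CPM) in each BEC-like cluster and library, with sham in blue, BDL in red, circles for replicate 1 and squares for replicate 2, and the leading gene beside the squares. Sham points sit at 2036 to 2752 CPM of Erbb4 and BDL points at 535 to 1433 CPM, while the Egfr of the BDL clusters spans 188 to 1270 CPM and overlaps the sham range of 92.6 to 269 CPM.

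Ligands were spread unevenly over the biliary clusters. Areg was concentrated in the Vtcn1 cluster, at 32.1 and 27.6 CPM in the BDL libraries. Other BDL clusters stayed at 1.90 to 5.88 CPM. In sham the Mboat1 cluster was highest, at 5.95 and 12.4 CPM. Without the Vtcn1 cluster, BEC-like Areg was 2.90 and 5.41 CPM in sham and 3.56 and 3.03 CPM in BDL, with overlap and a log2 fold change of -0.34. That cluster held 14 and 11 cells in sham and 134 and 570 cells in BDL. Leaving it out thus took cells mainly from BDL, while the Mboat1 cluster of sham stayed in. The higher Areg of BDL libraries was not seen without the Vtcn1 cluster, and a like removal in sham was not tested.

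Btc followed a related pattern, with 84.9 and 98.7 CPM in the Mboat1 cluster of sham cells and 87.4 and 90.7 CPM in the Vtcn1 cluster of BDL cells. It was lowest in BDL in the Dscaml1 cluster, at 22.1 and 26.9 CPM. Hbegf was highest in the same clusters, at 2353 and 2597 CPM in the Mboat1 cluster and 1748 and 1613 CPM in the Vtcn1 cluster. Its lowest BDL values, 688 and 625 CPM, were in the Ccl20 cluster, and its lowest sham values, 818 and 1154 CPM, in the Tll2 cluster. Hbegf of sham clusters therefore overlapped that of BDL clusters, unlike Erbb4.

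Nrg1 had another order. It was highest in the Kcnip4 cluster of sham cells (191 and 220 CPM) and in the Dscaml1 cluster of BDL cells (164 and 179 CPM). It was lowest in the Ccl20 cluster, at 39.2 and 19.9 CPM. The Dscaml1 cluster thus joined the lowest Egfr of BDL clusters with their highest Nrg1. Tgfa was highest in the H1f5 cluster, whose leading genes include the proliferation genes Mki67 and Top2a, at 138 and 171 CPM, next to 136 and 146 CPM in the Ccl20 cluster. Its lowest BDL values were those of the Plscr1l1 cluster, 60.8 and 69.8 CPM, and its highest sham values those of the Mboat1 cluster, 104 and 121 CPM.

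**Figure D3:**
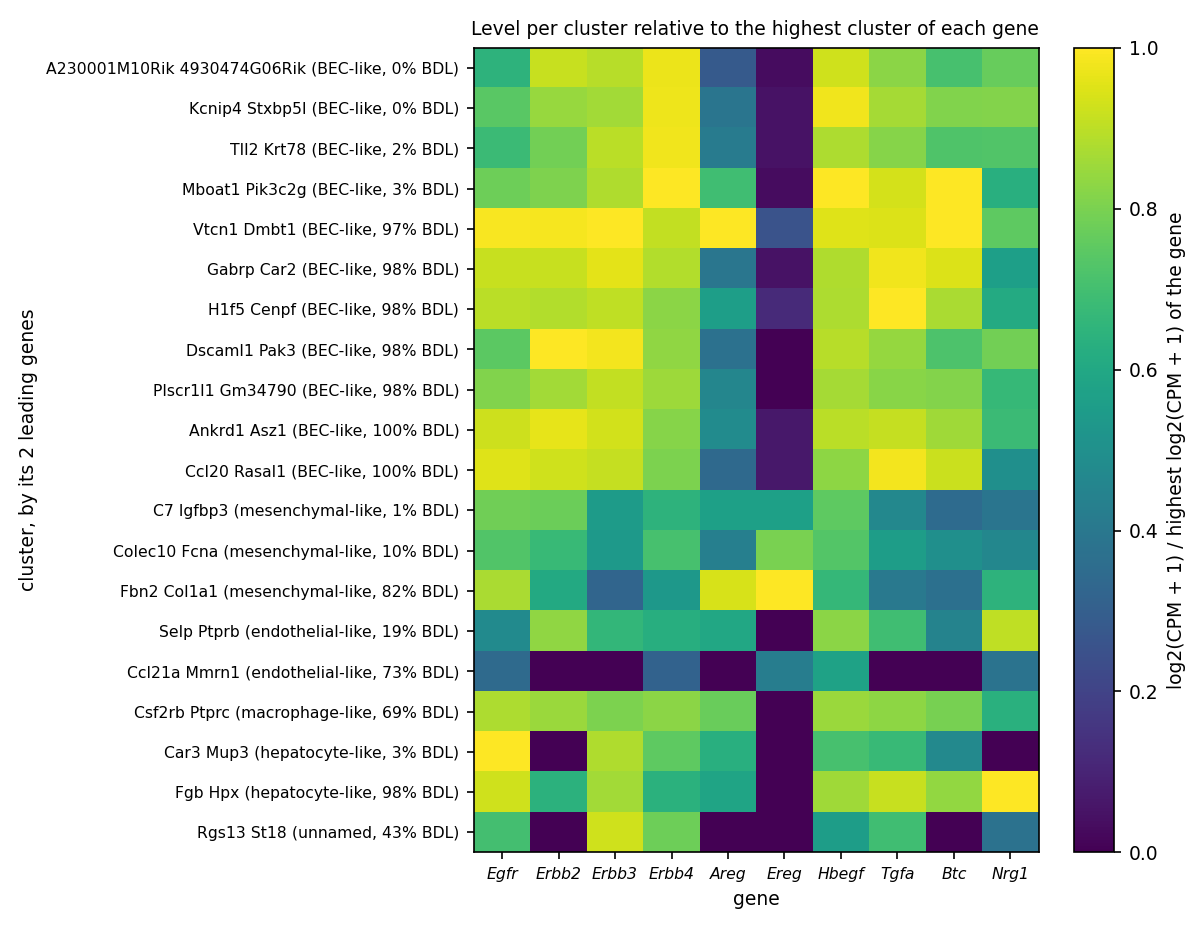
Level of each member in the 20 clusters, as log2(CPM + 1) divided by that of the gene's highest cluster (1 is the highest), with clusters named by 2 leading genes, their class and the share of their cells from BDL libraries. Ereg is highest in the mesenchymal-like rows, Erbb4 is highest in sham BEC-like rows, and each column is scaled on its own, so genes are not comparable with each other.

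Across cell classes the receptors differed in where they were found. Erbb4 was highest in BEC-like cells, at 2252 and 2250 CPM in sham, and lower in mesenchymal-like cells (54.0 and 340 CPM), endothelial-like cells (80.0 and 193 CPM) and the hepatocyte-like cells of sham replicate 2 (397 CPM). Egfr in sham replicate 2 was highest in hepatocyte-like cells at 1397 CPM (176 UMIs), followed by mesenchymal-like cells at 188 and BEC-like cells at 158 CPM. The last pair of classes differed by less than the sham libraries did within mesenchymal-like cells (338 and 188 CPM). In BDL replicates 1 and 2 it was 389 and 870 CPM in hepatocyte-like cells (29 and 219 UMIs), 582 and 858 CPM in BEC-like cells and 384 and 521 CPM in mesenchymal-like cells, so hepatocyte-like and BEC-like cells had no common order. The hepatocyte-like cells of the BDL libraries carried biliary markers at 12365 and 10306 CPM, close to the level of BEC-like cells, so these classes are not cleanly apart there. Endothelial-like cells gave 1, 3, 1 and 5 Egfr UMIs, or 16.0 to 38.1 CPM. Erbb3 was at 3.90 to 9.18 CPM in mesenchymal-like cells against 38.1 to 63.7 CPM in BEC-like cells. In hepatocyte-like cells it was at 47.6 CPM in sham replicate 2 and 53.7 and 35.8 CPM in BDL (6, 4 and 9 UMIs), next to the BEC-like levels. Erbb2 gave at most 19 UMIs per library outside the biliary class.

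Values for the macrophage-like cluster depended on how finely cells were clustered. At resolution 2 it shrank to 6, 11, 12 and 21 cells, and its Egfr over all libraries went from 535 to 25.4 CPM, its Tgfa from 66.3 to 12.7 CPM and its Erbb4 from 655 to 399 CPM. No level of the family is ascribed to macrophages here. The 28 cells of the unnamed cluster held 5 and 37 Erbb4 UMIs and 4 and 10 Egfr UMIs in the sham and BDL groups, and 0 of Areg, Btc, Erbb2 and Ereg.

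In endothelial-like cells the ligands Hbegf and Nrg1 were the members with the most UMIs. Hbegf was at 496 and 716 CPM in sham and 413 and 328 CPM in BDL. Nrg1 was at 448 and 365 CPM in sham and 190 and 168 CPM in BDL (28, 53, 11 and 22 UMIs). Both were lower in both BDL libraries. The class had a different makeup in the groups: a cluster led by Ccl21a and Mmrn1 held 3 of 40 and 3 of 122 cells in sham and 3 of 19 and 13 of 34 cells in BDL. Within the other cluster, led by Selp and Ptprb, Hbegf was at 536 and 741 CPM in sham and 603 and 517 CPM in BDL, with overlap, and Nrg1 at 484 and 378 CPM and at 262 and 316 CPM, without overlap. With 19 cells in BDL replicate 1, this class was too small for the fit.

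Nrg1 in hepatocyte-like cells was seen in BDL libraries alone. It gave 0 UMIs in sham replicate 2, which allows up to 23.8 CPM by the floor of 3 counts, and 268 and 810 CPM in the BDL libraries (20 and 204 UMIs in 8 and 35 cells). Sham replicate 1 held 2 such cells, too few to compare. The class consisted of different clusters in the groups. A cluster led by Car3 and Mup3 held 31 of the 32 cells of sham replicate 2 and had 0 Nrg1 UMIs. A cluster led by Fgb and Hpx held 7 of the 8 and 35 of the 35 cells of the BDL replicates and had 691 CPM of Nrg1. The biliary markers summed to 2103 CPM in the hepatocyte-like cells of sham replicate 2 and to 12365 and 10306 CPM in BDL, and the hepatocyte markers to 15199 CPM and to 8150 and 6850 CPM. The cells compared are thus not alike in these markers, and the part of that in Nrg1 was not tested.

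Ereg was found almost wholly in mesenchymal-like cells, which express collagens and Pdgfrb. They gave 107, 64, 126 and 458 Ereg UMIs, or 148 and 48.9 CPM in sham and 245 and 414 CPM in BDL. Both BDL libraries were above both sham libraries, and the log2 fold change was 1.77 ± 0.44 (SE). Leaving out sham replicate 1 gave 2.68, and leaving out sham replicate 2 gave 1.17. BEC-like cells held 5 Ereg UMIs in the sham group and 38 in the BDL group, endothelial-like cells 1, and hepatocyte-like, macrophage-like and unnamed cells 0. At 1000 UMIs per cell, 4.95% and 2.66% of sham and 14.1% and 29.5% of BDL mesenchymal-like cells had an Ereg UMI. In the pair of matching names the log2 ratio of Ereg was 0.73.

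In mesenchymal-like cells Areg, another Egfr ligand, was at 9.69 and 6.12 CPM in sham and 15.6 and 19.9 CPM in BDL (7, 8, 8 and 22 UMIs). Its log2 fold change was 1.21 ± 0.48 (SE), and 0.68 in the pair of matching names. Egfr itself was at 338 and 188 CPM in sham and 384 and 521 CPM in BDL, with a log2 fold change of 0.77 ± 0.29 (SE) that was 0.18 in the pair of matching names. Hbegf was lower, at 230 and 367 CPM in sham and 138 and 197 CPM in BDL, with a log2 fold change of -0.88 ± 0.30 (SE), and -0.73 in that pair. Ereg, Areg and Egfr were thus higher and Hbegf lower in both BDL libraries of this class.

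Erbb4 in mesenchymal-like cells was at 54.0 and 340 CPM in sham and 27.3 and 78.6 CPM in BDL, with overlap. Its log2 fold change of -1.91 ± 0.74 (SE) became 0.060 without sham replicate 2 and was -0.99 in the pair of matching names. The biliary markers in this class summed to 1346, 2265, 1116 and 1931 CPM, highest in the same library, with 10 of 11 detected in each. Nrg1 was at 76.2 and 30.6 CPM in sham and 52.6 and 21.7 CPM in BDL, also overlapping. Its log2 fold change of -0.59 ± 0.52 (SE) became 0.10 without sham replicate 1 and was -0.53 in that pair. Tgfa gave 8, 17, 3 and 12 UMIs, with a log2 fold change of -0.48 ± 0.51 (SE), and -0.92 in that pair. Erbb2, Erbb3 and Btc did not pass the filter on low counts in this class.

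Of the 7 members fitted in mesenchymal-like cells, 0 were called by edgeR at an adjusted p under 0.05, beside 5.8% of all 8766 genes (2.33% higher and 3.47% lower). At an unadjusted p under 0.05 the same fit had 1924 genes. DESeq2, run as an alternative, called 359 of 8766 genes, Ereg among them, and some edgeR alternatives also called members of this class. Nothing is read from these calls, because the genes were chosen with this contrast known. The groups did not overlap in 3 members with BDL higher and in 2 with BDL lower, beside 51.7% of all genes in either direction. The fit had 71 cells in its smallest library.

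Marker sums of other cell types also moved with the groups in mesenchymal-like cells. The 5 Schwann markers summed to 150 and 124 CPM in sham and 325 and 615 CPM in BDL, with 1 higher and 0 lower without overlap. The 10 endothelial markers summed to 382 and 330 CPM and to 684 and 765 CPM, with 2 higher and 5 lower. The 5 smooth muscle markers summed to 407 and 427 CPM and to 629 and 668 CPM, with 3 higher and 2 lower. The 5 mesothelial markers summed to 98.3 and 193 CPM and to 19.5 and 47.0 CPM, with 2 lower and 0 higher. Their part in the levels of the members was not tested.

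The makeup of the mesenchymal-like class differed between groups. A cluster led by Fbn2 and Col1a1 made up 9.57% and 3.79% of the class in sham and 60.6% and 83.3% in BDL. A cluster led by Colec10 and Fcna made up 57.4% and 76.3% in sham and 38.0% and 16.7% in BDL, and one led by C7 and Igfbp3 33.0% and 19.9% in sham and 1.41% and 0% in BDL. Within the Colec10 cluster, Ereg was at 97.1 and 57.3 CPM in sham and 244 and 299 CPM in BDL, without overlap, with 27 and 22 cells in the BDL libraries. Within the Fbn2 cluster it was at 440 and 76.2 CPM in sham (18 and 16 cells) and 247 and 431 CPM in BDL (43 and 110 cells), with overlap. The higher Ereg of BDL libraries was thus present within the Colec10 cluster and not separated within the Fbn2 cluster. At resolution 2, however, the cluster led by Fbn2 held 1 and 3 sham cells and 43 and 106 BDL cells. Another, led by Slit3 and Adgrd1, held 17 and 13 sham cells and 0 and 5 BDL cells. The sham and BDL cells compared within the Fbn2 cluster are therefore not shown to be alike.

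**Figure D4:**
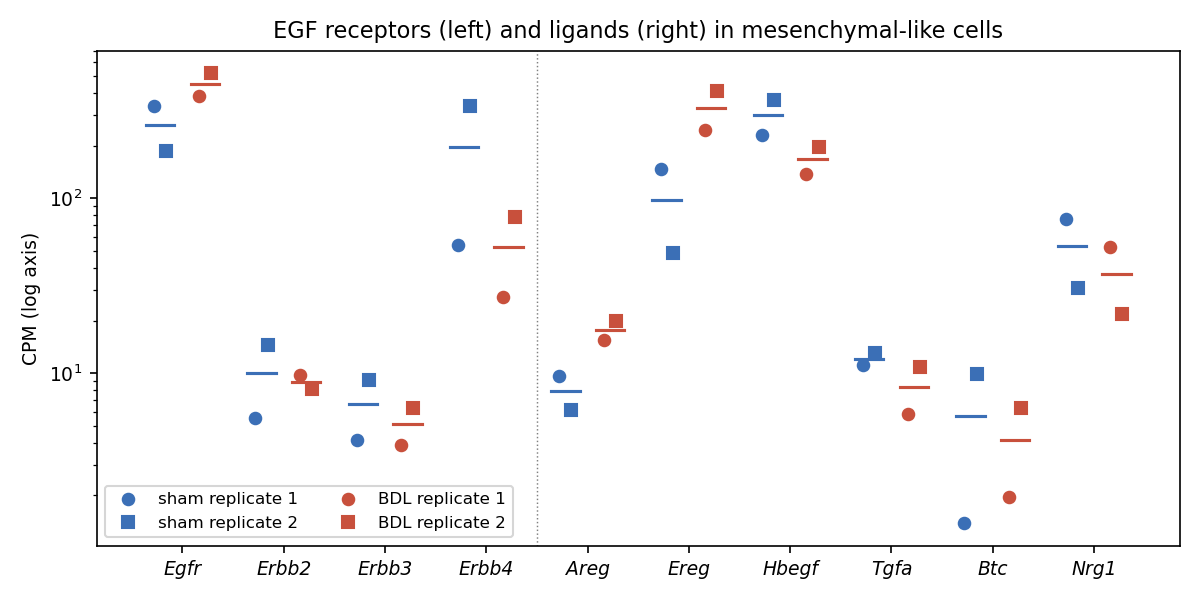
Level of each member in mesenchymal-like cells of each library, in CPM on a log axis, with sham in blue, BDL in red, circles for replicate 1, squares for replicate 2 and a bar at the group mean. Ereg sits at 48.9 to 148 CPM in sham and 245 to 414 CPM in BDL, and Erbb4 overlaps because sham replicate 1, at 54.0 CPM, lies between the BDL values of 27.3 and 78.6 CPM, while heights of different genes are not comparable.

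**Figure D5:**
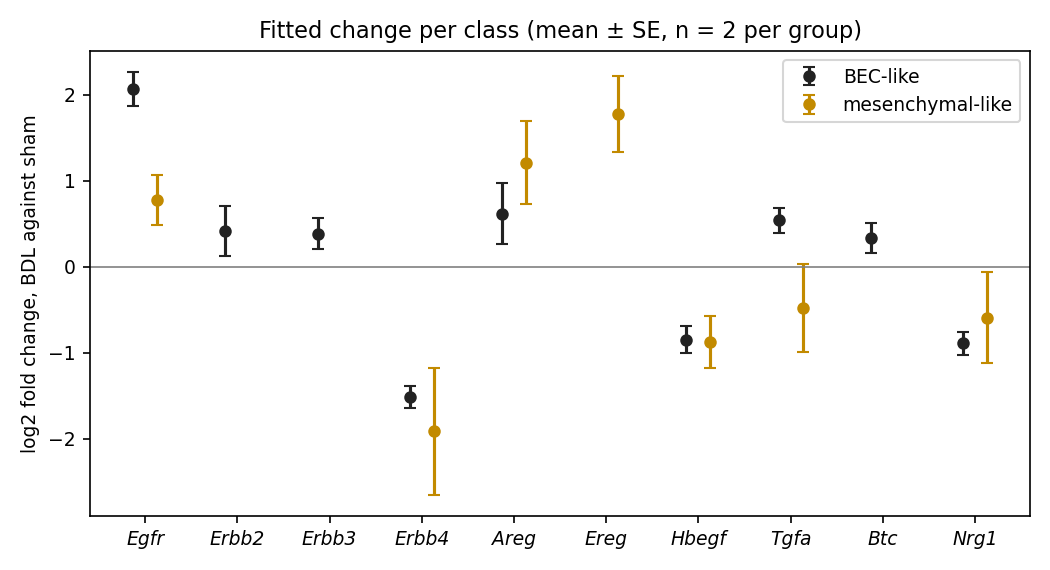
Log2 fold change of BDL against sham for each member that passed the filter, with its standard error (n = 2 per group), in BEC-like cells (black) and mesenchymal-like cells (orange). Egfr is above 0 and Erbb4, Hbegf and Nrg1 are below 0 in both classes (Erbb4 and Nrg1 of mesenchymal-like cells turn sign when 1 library is left out), Tgfa is at 0.54 in the one and -0.48 in the other, and Ereg is shown for mesenchymal-like cells at 1.77.

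The other genes of the pathway were taken from a list of 54 that holds no member, and 51 of them were tested in BEC-like cells. In the edgeR fit of all genes, with adjusted p under 0.05, 10 rose and 6 fell after BDL, or 31.4% of those tested beside 27.2% of all genes. Their median log2 fold change was 0.02. The list was drawn up with earlier results of these data known. Of the 16 calls, 4 remained without sham replicate 1, 5 without sham replicate 2 and 7 in cells with a low share of hepatocyte markers, while Hmga2, Ier3 and Egr1 were called under all 13 alternatives.

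Of 5 genes for ligand shedding, 3 rose. Adam10, a protease that cleaves ligands such as Btc from the membrane, was at 136 and 95.4 CPM in sham and 175 and 183 CPM in BDL, with a log2 fold change of 0.66 ± 0.14 (SE) and an edgeR adjusted p of 0.0167. Across alternatives its adjusted p ran from 9.04e-07 to 0.0990. Rhbdf1 and Rhbdf2, the iRhom proteins that bring the sheddase Adam17 to the cell surface, rose by 0.62 and 0.48 on the log2 scale. Their edgeR adjusted p values were 0.0145 and 0.0228, up to 0.122 and 0.215 across alternatives.

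Of 20 adaptors and kinases, 2 rose, 2 fell and 16 did not pass. Akt1, a kinase of the PI3K branch, rose by 0.60 (adjusted p = 0.0223 by edgeR, up to 0.155 across alternatives). The adaptor Grb2 also passed the test and was lower.

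Of 15 genes of receptor restraint and feedback, 2 rose, 2 fell and 11 did not pass. Dusp6, a phosphatase that removes ERK phosphorylation, fell by 0.56 (edgeR adjusted p = 0.0128, up to 0.119 across alternatives). Spred2, an inhibitor of RAS-ERK signalling, rose by 0.61 (adjusted p = 0.0172 by edgeR, up to 0.121). Spry1, of the Sprouty family of inhibitors, fell by 0.86 (adjusted p = 0.0251 by edgeR, up to 0.168). Rnf41, a ubiquitin ligase of Erbb3, also rose.

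Of 9 genes listed as responding to ERK, 3 rose, 2 fell and 4 did not pass. Hmga2, a chromatin protein, was at 7.71 and 5.5 CPM in sham and 25.1 and 49.8 CPM in BDL, and rose by 2.54 ± 0.35 on the log2 scale (edgeR adjusted p = 0.00375, up to 0.0406 across alternatives). Ier3, an immediate early gene, was at 475 and 384 CPM in sham and 756 and 734 CPM in BDL, and rose by 0.82 ± 0.12 (edgeR adjusted p = 0.00434, up to 0.0375). Egr1, also an immediate early gene, was at 1763 and 2821 CPM in sham and 838 and 786 CPM in BDL, and fell by 1.5 ± 0.26 (edgeR adjusted p = 0.00812, up to 0.0160). Genes of this list thus moved in both directions, with Phlda1 also rising and Etv5 falling.

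The remaining EGF family ligands were at most 2.16 CPM in BEC-like cells. Egf gave 8, 6, 14 and 16 UMIs and Nrg4 21, 9, 18 and 42 UMIs, with log2 fold changes of -0.12 ± 0.57 and -0.31 ± 0.45 (SE) that did not pass the test. Nrg2 gave 10, 4, 8 and 18 UMIs, Nrg3 7, 5, 6 and 22 and Epgn 2, 0, 1 and 1, and these 3 did not pass the filter on low counts.

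Likeness in expression was measured as Pearson's r of log2(CPM + 1) over the 20 clusters, among 12099 genes. The points share libraries and differ in depth and cell number, so r is given as a description. The genes most like Egfr were Mtap (0.92), Ddx1 (0.90) and Aars1 (0.89). Those most like Erbb4 were Atp1b1 (0.96), Kcnk1 (0.96) and Smim22 (0.95), and those most like Erbb3 were Shtn1 (0.98), Ocln (0.96) and Hook1 (0.96). Erbb2 was nearest to Grik5 (0.95), Smarcb1 (0.95) and Erich1 (0.95).

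Among the ligands, Ereg was nearest to Sparcl1 (0.95), Tbx20 (0.95) and Kcne4 (0.93), and Hbegf to Mal (0.93) and Pak6 (0.91). Tgfa was nearest to Usp43 (0.98), Eepd1 (0.96) and Pik3ap1 (0.96), and Btc to Wfdc2 (0.94), Tfcp2l1 (0.94) and Tnfaip8 (0.94). Nrg1 and Areg had lower values, the first with Btg3 (0.84), Zfp605 (0.84) and Chd1 (0.84), the second with Rps13 (0.81), Sdc1 (0.79) and Clcn5 (0.77). Between members, r was 0.93 for Erbb3 and Tgfa, 0.91 for Hbegf and Btc, 0.39 for Egfr and Erbb4 and -0.72 for Erbb3 and Ereg.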

How the data were processed

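Cells from 4 mouse livers were fixed and processed with the Parse Evercode kit, which marks cells by rounds of splitting and pooling and primes with random hexamers and oligo-dT, per the labels' protocols. The matrices deposited by the authors hold raw counts of transcripts (UMIs) per gene and cell, with no normalization. The submitters' processing notes name the build GRCm39. The aligner is not given in the sources used here.

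The members and gene lists were chosen with earlier results of these data known. Cells under 500 UMIs (7) or over 20% mitochondrial UMIs (10) were left out. Scrublet called 11 doublets (0.0902%), so few that it had not worked, and these were removed too. Leiden clustering ran at resolution 1 on 30 components of 2000 variable genes with 20 neighbours (scanpy 1.11.5, leidenalg 0.10.2). A cluster was named where at least 3 markers, and at least 50% of a list, were in at least 5% of its cells and over 2-fold above the cells compared. The 50% was added after seeing the data, because without it several sham BEC clusters were named hepatocyte-like from Alb, Ttr and Ahsg. The measure of leading genes was also changed after seeing the data, and Msln was among those of the Vtcn1 cluster with small pseudocounts but not with larger ones.

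Counts were summed per library and class and tested with edgeR 4.0.16 in R 4.3.3 (TMM, filterByExpr, quasi-likelihood F test, two-sided, Benjamini-Hochberg over all genes tested, threshold 0.05), with DESeq2 1.42.0 as an alternative. Log2 fold changes are TMM-scaled, and their standard errors come from the F statistic. Levels are CPM of the summed counts. Each library is a separate mouse by its label. The limit given for a count of 0 is 3 counts of the total, which covers counting error only. Named pathway genes are up to 3 per sublist with the smallest adjusted p under 0.05, plus 5 further ligands, while the other genes called in a sublist were named after their values were seen. Some genes that this rule or the likeness rule takes are not reported here. Fits were tested on simulated data. With gene-wise dispersions the share of false edgeR calls exceeded the nominal rate, and with trended dispersions it did not.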

Additional observations from a re-analysis of the deposited data

Results flagged for a closer look

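Tgfa lay on opposite sides of sham in the classes compared. Both BDL libraries were above both sham libraries in BEC-like cells and below them in mesenchymal-like cells, and the log2 ratios of mean CPM differed by 1.05. That difference was not tested. The mesenchymal-like values rest on 8, 17, 3 and 12 UMIs. With libraries pooled per group, their 95% intervals of the count overlapped, at 7.97 to 18.2 CPM in sham and 5.18 to 15.3 CPM in BDL.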

How the results depend on the processing

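Genes called by edgeR in BEC-like cells numbered 4365, 2640 in cells with a low share of hepatocyte markers, and 1300 to 6409 with 1 library left out. Pathway genes called numbered 16, 9 in cells with a low hepatocyte share, and 5 to 22 with 1 library left out. In mesenchymal-like cells 508 genes were called, 1078 with no filter on low counts, 303 with sums thinned to the shallowest library, and 185 to 893 with 1 library left out. With 1 library left out, the counts of calls were lowest without sham replicate 1 (for the pathway list equally without sham replicate 2) and highest without BDL replicate 1. Signs turned for Erbb2 in BEC-like cells (-0.12 without BDL replicate 2, of a range of -0.12 to 0.81, and -0.34 in the pair of matching names) and for Areg (-0.34 without the Vtcn1 cluster). In mesenchymal-like cells they turned for Erbb4 (-2.91 to 0.060 with 1 library left out) and Nrg1 (-1.28 to 0.10, including 0.060 without BDL replicate 2). The shares of cells turned for Hbegf and Nrg1, to 6.50 and 5.33 percentage points higher in BDL with no thinning. The cause of the other changes was not tested. Of the 5 members counted as called in BEC-like cells, Hbegf dropped out without sham replicate 2, and Tgfa without sham replicate 1, sham replicate 2 or BDL replicate 2 and in cells with a low hepatocyte share. Other members were gained under some alternatives in both classes, where the number of all genes called moved too. Nothing is read from these calls either.

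The share of calls that were higher in BDL was 52.3%, and 62.6% with no filter. The median over the genes of the main test moved to 0.11 with no filter and to -0.11 in the pair of matching names, and changes there are read relative to it. Erbb3 in BEC-like cells, at -0.061 in that pair, lay above that median. Leaving out the Vtcn1 cluster and leaving out the highest doublet scores were chosen after seeing the data. No paired analysis was possible because no replicate number in the labels links a sham mouse to a BDL mouse. Depth in BDL libraries was over that of sham libraries, and classes of under 30 cells in a library were not fitted.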
